A study of Mus musculus with 55 samples.

Results

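The 10 genes described here carry out classical MHC class I antigen presentation: the heavy chains H2-K1 and H2-D1, their light chain B2m, the peptide transporter subunits Tap1 and Tap2, the loading factor Tapbp (tapasin), the immunoproteasome subunits Psmb8, Psmb9 and Psmb10, and the class I transactivator Nlrc5. They were taken by symbol from the count table, where all 10 of 10 were found among 24475 symbols, and all 10 were among the 13311 genes that passed the filter on low counts. Their levels were measured by strand-specific sequencing of polyadenylated RNA from 55 livers of male mice, 1 library per mouse.

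The mice belonged to 2 strains and received 1 of 3 vectors. WT mice were B6EiC3SnF1/J hybrids, and OTC mice were B6EiC3Sn a/A-Otcspf-ash/J, which carry the Otcspf-ash mutation of the urea cycle enzyme ornithine transcarbamylase. Each mouse received an adeno-associated virus (AAV) intravenously at week 0, at an age of 4 months. The virus carried a hairpin against Gls2 (liver-type glutaminase, sh-Gls2), a hairpin against Glud1 (glutamate dehydrogenase, sh-Glud1) or a scrambled hairpin (control). All 6 groups therefore carried an AAV with a hairpin, and no group without a virus was analysed here. All were moved from chow to a diet with 40% protein at week 2, and livers were taken at week 5, with an age of 5 months on the labels. Of the WT livers, 10 had the control vector, 10 sh-Gls2 and 9 sh-Glud1. Of the OTC livers, 8 had the control vector, 10 sh-Gls2 and 8 sh-Glud1.

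Class I molecules show peptides from inside the cell to CD8 T cells. The proteasome cuts proteins into peptides, the Tap1-Tap2 transporter moves them into the endoplasmic reticulum, tapasin holds the empty class I molecule at the transporter, and the complex of heavy chain, B2m and peptide travels to the surface. Interferons raise this pathway: they exchange the catalytic subunits of the constitutive proteasome (Psmb5, Psmb6 and Psmb7) for Psmb8, Psmb9 and Psmb10, and induce Nlrc5, which binds class I promoters through an enhanceosome of RFX, CREB/ATF and NF-Y factors. Hepatocytes carry little class I in a resting liver, and Kupffer cells and endothelial cells carry more. In a liver sample, more RNA per cell and more cells of a kind that expresses a gene cannot be told apart.

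On GRCm38 (GENCODE M21), 7 of the 10 genes lie in the MHC region of chromosome 17. From the proximal side they are Tapbp at 33915899 to 33929292, H2-K1 at 33996017 to 34000347, Psmb9 at 34181987 to 34187764, Tap1 at 34187553 to 34197225, Psmb8 at 34197721 to 34201454, Tap2 at 34203527 to 34216321 and H2-D1 at 35262730 to 35267499. B2m lies on chromosome 2 (122147686 to 122153083), and Psmb10 (105935735 to 105938444) and Nlrc5 (94434356 to 94527272) lie on chromosome 8. H2-K1, Psmb9 and Psmb10 are on the minus strand and the other members on the plus strand. The gene models of Tap1 and Psmb9 share 212 bases on opposite strands. All 5398 bases of B2m lie within the model of Patl2 on the other strand, and 3422 bases of the Tapbp model are shared with Zbtb22 on the same strand. The sources used here do not say whether reads were counted by strand, so reads in these stretches may be split between both genes. H2-K1 and H2-D1 are close in sequence to each other and to the many nonclassical class I genes, and the parental strains differ in them, so their single-gene counts are uncertain.

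The promoters of the members whose regulation is best known are shown here, and some of them share sequence features. Each window runs from 250 bases before to 50 bases after the annotated start (RefSeq, GRCm38.p6), is written 5′ to 3′ on the strand of the gene, and has in capitals every match to 5 short motifs on either strand. These motifs were the IRF core AANNGAAA (bound by interferon regulatory factors), the GAS core TTCNNNGAA (found in interferon gamma response genes), the NF-kB core GGGANTNCC, and the X2 box core TGACG and Y box core CCAAT (bound by CREB/ATF and NF-Y in the class I enhanceosome). H2-K1 is shown at chr17:34000298-34000597 (minus strand), H2-D1 at chr17:35262844-35263143, B2m at chr2:122147437-122147736, Tap1 at chr17:34187306-34187605 and Psmb8 at chr17:34197945-34198244 (plus strand for all but H2-K1).
H2-K1: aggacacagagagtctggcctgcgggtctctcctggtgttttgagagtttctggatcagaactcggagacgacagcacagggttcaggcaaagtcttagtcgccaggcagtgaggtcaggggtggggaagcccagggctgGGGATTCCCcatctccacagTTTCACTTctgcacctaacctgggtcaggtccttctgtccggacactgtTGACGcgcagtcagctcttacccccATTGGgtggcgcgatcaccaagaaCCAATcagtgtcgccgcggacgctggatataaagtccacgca
H2-D1: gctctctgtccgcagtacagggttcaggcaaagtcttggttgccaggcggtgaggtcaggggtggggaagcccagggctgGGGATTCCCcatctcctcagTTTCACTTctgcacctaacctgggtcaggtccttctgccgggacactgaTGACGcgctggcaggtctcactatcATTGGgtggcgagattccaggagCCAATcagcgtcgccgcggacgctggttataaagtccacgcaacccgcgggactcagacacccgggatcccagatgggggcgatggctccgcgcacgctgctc
B2m: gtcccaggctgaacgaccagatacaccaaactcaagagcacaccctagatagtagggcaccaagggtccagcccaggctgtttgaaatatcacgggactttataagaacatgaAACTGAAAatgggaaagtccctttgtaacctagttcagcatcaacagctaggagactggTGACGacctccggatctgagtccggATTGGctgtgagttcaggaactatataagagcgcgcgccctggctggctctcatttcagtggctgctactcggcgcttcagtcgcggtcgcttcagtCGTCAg
Tap1: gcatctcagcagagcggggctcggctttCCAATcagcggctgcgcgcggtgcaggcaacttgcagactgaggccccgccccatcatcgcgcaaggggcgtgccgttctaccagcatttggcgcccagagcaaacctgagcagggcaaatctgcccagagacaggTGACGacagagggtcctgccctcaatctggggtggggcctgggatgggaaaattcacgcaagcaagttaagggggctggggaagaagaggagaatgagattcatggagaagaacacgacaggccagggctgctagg
Psmb8: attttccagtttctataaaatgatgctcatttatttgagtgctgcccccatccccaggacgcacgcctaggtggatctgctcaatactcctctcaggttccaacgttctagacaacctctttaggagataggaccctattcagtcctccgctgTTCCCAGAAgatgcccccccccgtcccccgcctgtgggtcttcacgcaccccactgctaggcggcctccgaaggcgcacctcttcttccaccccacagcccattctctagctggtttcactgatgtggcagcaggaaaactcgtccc

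H2-K1, H2-D1 and B2m shared the same arrangement: an X2 core (TGACG) followed 25 bases downstream by a reversed Y core (ATTGG), at positions -41 and -16 in H2-K1, -101 and -76 in H2-D1 and -78 and -53 in B2m, counted from 0 at the annotated start. H2-K1 and H2-D1 also held an NF-kB core (GGGATTCCC) and a reversed IRF core (TTTCACTT), at -110 and -90 in H2-K1 and at -170 and -150 in H2-D1, and B2m held an IRF core (AACTGAAA) at -137. The Tap1 window overlapped that of the divergent gene Psmb9 by 275 bases, so the X2 core at -86 and the Y core at -222 of Tap1 belong to both genes. In Psmb8 a GAS core (TTCCCAGAA) at -97 was the only match to these 5 motifs, and Psmb10 had none in its window. Of the 8 members with a promoter in the RefSeq table (all but Tap2 and Nlrc5), 5 held an X2 core, 6 a Y core, 3 an IRF core, 2 an NF-kB core and 1 a GAS core. Over all 32851 promoter windows of the table, the shares were 20.8% for the X2 core, 37.4% for the Y core, 23.9% for the IRF core, 3.95% for the NF-kB core and 8.30% for the GAS core. A match describes letters in these windows and is no measure of binding in these livers.

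Library totals ran from 14489866 to 22781052 counts. The label check gave the direction of each label: Otc was at 43.02 to 87.2 CPM in all OTC livers and at 473 to 596 CPM in all WT livers, Gls2 was lower by a log2 fold change of -1.11 in WT and -1.15 in OTC under sh-Gls2, and Glud1 by -1.42 and -1.27 under sh-Glud1. CPM here stands for counts scaled to the TMM-normalized library total. No 2 libraries were alike enough to be copies of each other. The libraries of 3 control mice (13 of the WT group, 3 and 67 of the OTC group) were left out together in an alternative fit. Without them the members called between OTC and WT controls went from 4 to 5, and those under sh-Gls2 against control stayed at 10 in WT and 8 in OTC mice.

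A set of libraries stood apart inside the MHC region itself, and touches the results on H2-K1 and other members. C4b (complement component 4B, chromosome 17, 34728380 to 34743882) lies between Tap2 and H2-D1 and is known to differ in level between H2 haplotypes. Its level was split in WT mice: 19 of 29 livers lay between 284 and 447 CPM and 10 between 761 and 978 CPM, with none between. The 10 were 2 of 10 WT control livers (mice 10 and 19), 5 of 10 WT sh-Gls2 livers (mice 8, 30, 34, 78 and 79) and 3 of 9 WT sh-Glud1 livers (mice 15, 17 and 69). Mice of an F1 hybrid carry the H2 haplotypes of both parents, so the WT label would lead one to expect like genotypes in this region. No genotype was examined here, and the cause of the split was not tested. Every comparison with WT mice below rests on livers labelled WT that differ in the level of C4b. In OTC mice C4b ran without such a gap from 154 to 583 CPM, with 1 liver (OTC sh-Glud1 mouse 44) at 793 CPM. The same WT livers had the highest H2-K1 of their groups: 566 and 650 CPM against 364 to 463 CPM in the other WT control livers, 824 to 886 CPM against 483 to 644 CPM under sh-Gls2, and 614 to 792 CPM against 416 to 563 CPM under sh-Glud1. OTC sh-Glud1 mouse 44 likewise had the highest H2-K1 of its group, at 569 CPM.

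**Figure D1:**
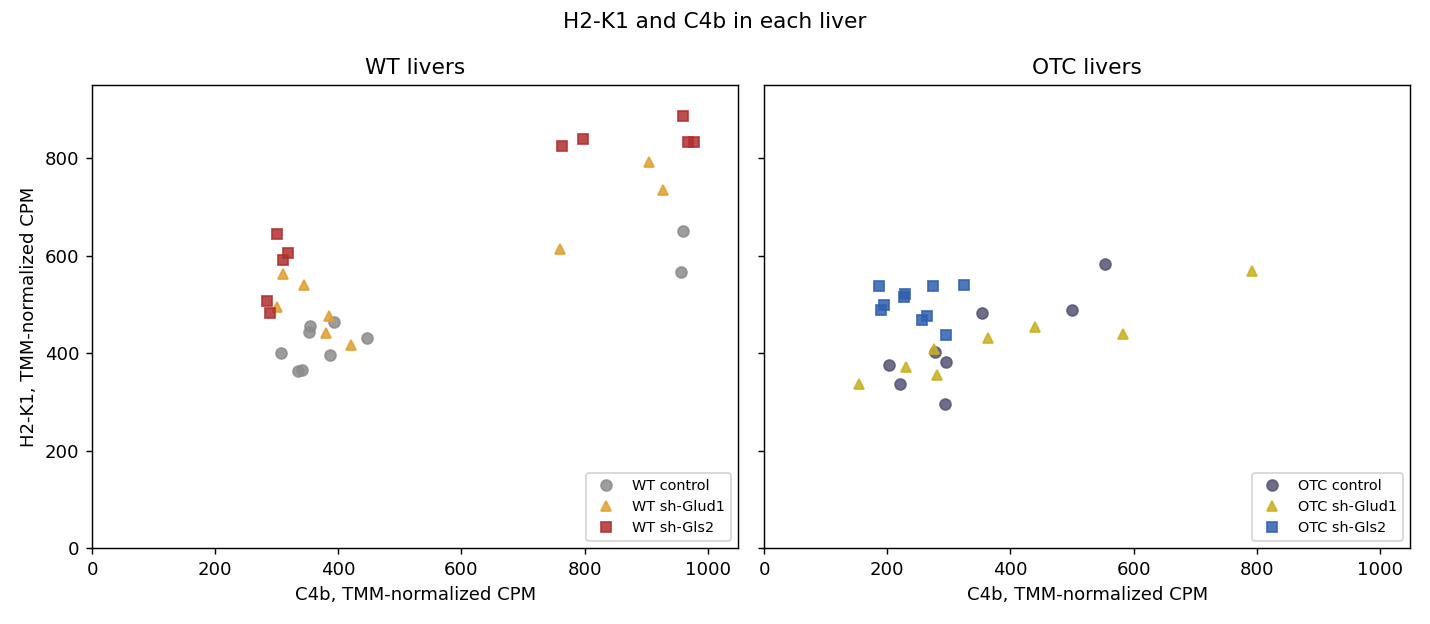
H2-K1 (vertical axis) against C4b (horizontal axis), both in TMM-normalized CPM, with 1 point per liver, WT mice on the left and OTC mice on the right, and colour and shape for the vector. In WT mice the 10 livers at 761 CPM of C4b or more sit apart on the right and hold the highest H2-K1 values of each vector group; in OTC mice the points form no such gap below 583 CPM.

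H2-Ea-ps, the class II alpha chain locus that is silent in the b haplotype of C57BL/6 and active in the k haplotype of C3H, had counts in 55 of 55 livers, from 1.58 to 14.5 CPM. In WT control mice 10 and 19 it stood at 2.32 and 2.29 CPM, the 2 lowest values of that group, whose other livers ran from 2.93 to 7.12 CPM. Under sh-Gls2 the WT livers of high C4b ran from 5.08 to 7.25 CPM and the others from 8.33 to 13.1 CPM. Under sh-Glud1 the WT livers of high C4b ran from 4.48 to 5.61 CPM and the others from 4.28 to 11.1 CPM. OTC sh-Glud1 mouse 44 was at 2.47 CPM, and mouse 58 of that group was lower, at 1.58 CPM. Which haplotype a liver carries cannot be read from these counts, and the part of haplotype in any member's level was not tested. Since the livers with high C4b fell unevenly over the vector groups, each comparison below was also fitted without the 11 livers over 700 CPM of C4b and with the log2 CPM of C4b as a covariate. Both were added after the data were seen, and their values are given beside the results they move.

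Under the control vector in WT livers, the members spanned a wide range of levels. Compared per transcript length, in TPM (the share of transcripts after division by length), B2m stood highest with a median of 2321 TPM (1974 to 2612), followed by H2-K1 with 438 (348 to 721) and H2-D1 with 231 (175 to 286). Tapbp followed with 35.8 TPM (32.8 to 42.6). Psmb8 with 19.1 (14.9 to 29.9), Psmb10 with 18.6 (16.3 to 22.8), Tap2 with 15.8 (13.3 to 21.4) and Psmb9 with 15.7 (9.60 to 27.3) overlapped one another. Tap1 with 6.90 (5.78 to 13.3) and Nlrc5 with 4.38 (3.74 to 4.95) stood lowest. The light chain was thus measured well above both classical heavy chains together in every WT control liver, and the activator Nlrc5 was the least abundant member there.

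**Figure D2:**
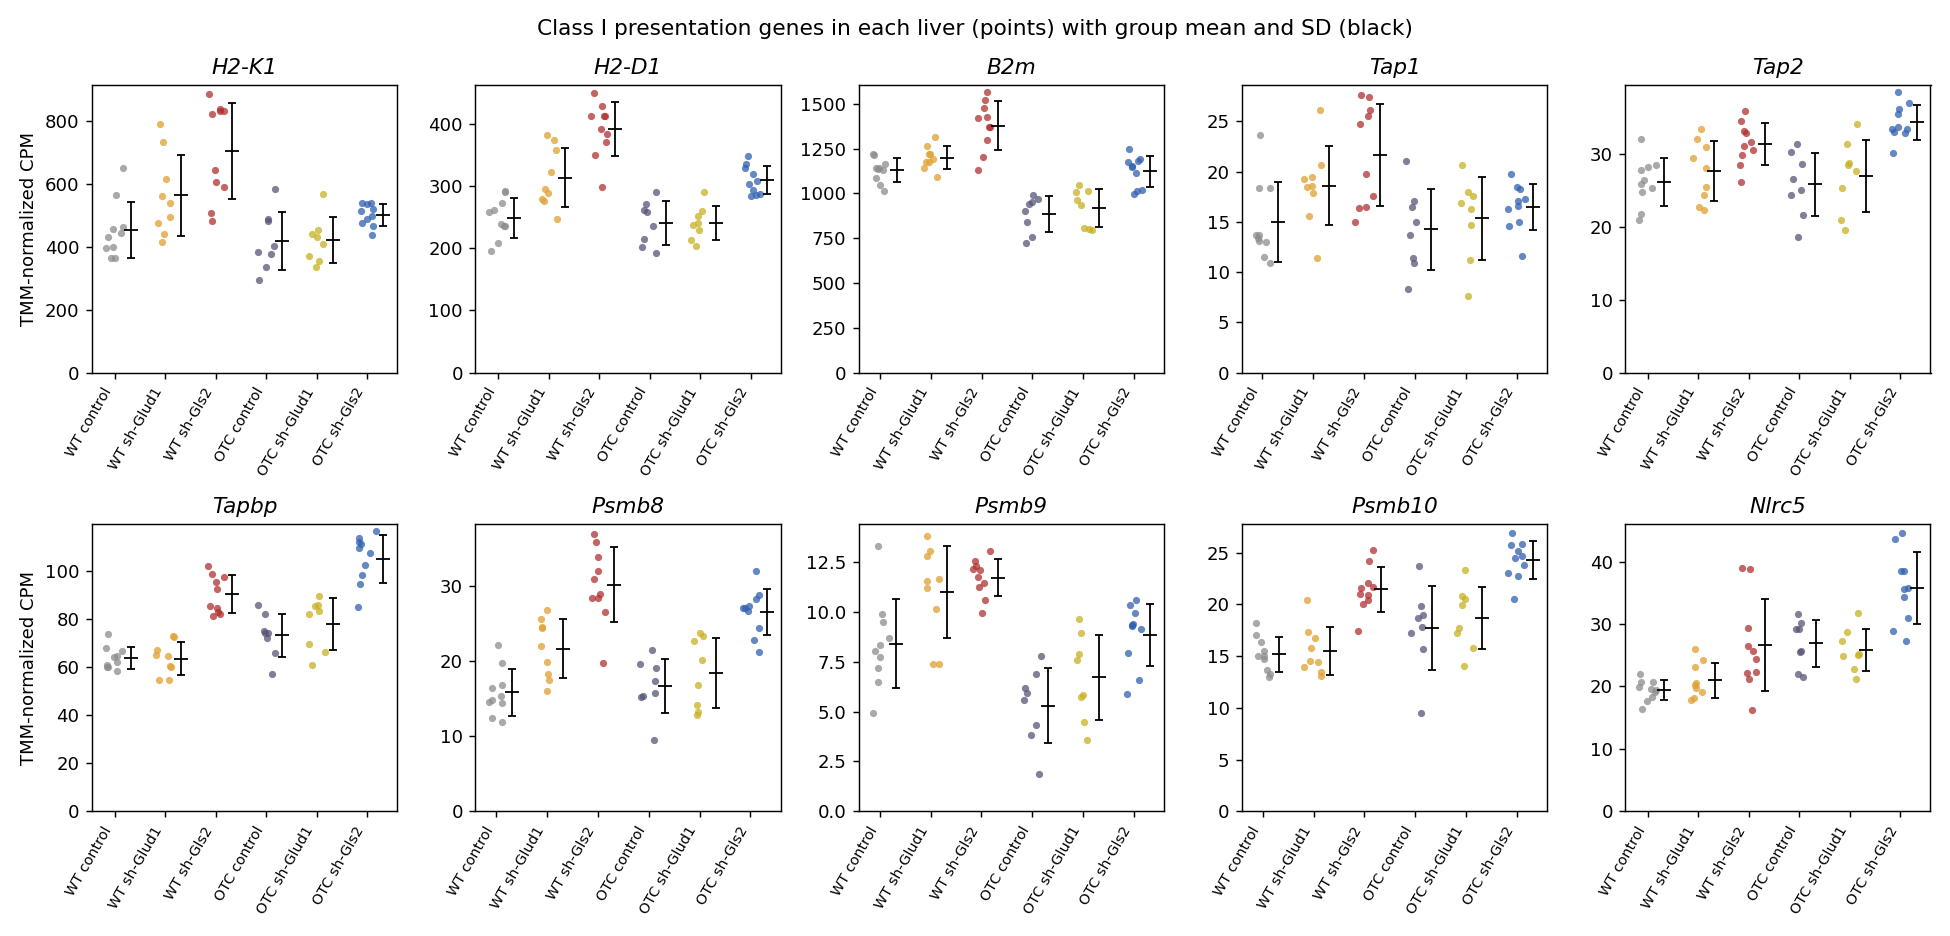
Each panel shows 1 member in TMM-normalized CPM (vertical axis, from 0), with 1 point per liver for the 6 groups, and the group mean and SD in black beside the points. Under sh-Gls2 the points lie higher than under the control vector in both strains, with no overlap for H2-D1 and Tapbp in WT mice and for B2m in OTC mice. The share of all genes without overlap was not counted.

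All 10 members were called higher under sh-Gls2 than under the control vector in WT livers. Calls were made by edgeR's quasi-likelihood test at a Benjamini-Hochberg adjusted p under 0.05 over 13311 genes. Without the livers over 700 CPM of C4b, 6 of 10 were called, as described below. With 1 hairpin against Gls2, an effect of lowering Gls2 cannot be told apart from another effect of that vector. Of all genes tested, 34.8% were called in this comparison and 17.6% were called higher. The log2 fold changes of the members ran from 0.26 to 0.93 with a median of 0.50, against a median of -0.01 over all genes. In OTC livers 8 of 10 members were called higher and none lower, where 42.7% of all genes were called and 20.2% were called higher. There the members' log2 fold changes ran from 0.21 to 0.74 with a median of 0.41, against -0.02 over all genes. No member reached a log2 fold change of 1 in either strain. Ranges without overlap are given below as a description of single members. Their share over all genes was not counted, so they cannot be set against a background.

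Among the heavy chains, H2-D1 gave the clearest separation in WT mice. It ran from 196 to 292 CPM (median 249) in WT control livers and from 298 to 449 CPM (median 401) in WT sh-Gls2 livers, so that the groups did not overlap. The log2 fold change was 0.65 ± 0.08 (SE, edgeR adjusted p = 4.2e-09). The WT sh-Gls2 livers over 700 CPM of C4b lay at 412 to 449 CPM of H2-D1 and the others at 298 to 391 CPM. The WT controls over that level, mice 10 and 19, lay at 273 and 290 CPM, within the range of the other controls. H2-D1 was among the 6 members still called in WT mice without the livers of high C4b. In OTC mice H2-D1 went from 191 to 290 CPM (median 247) under control to 283 to 347 CPM (median 305) under sh-Gls2, with a narrow overlap. The log2 fold change there was 0.36 ± 0.09 (edgeR adjusted p = 0.00054).

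H2-K1, the other classical heavy chain, ran from 364 to 650 CPM (median 437) in WT control livers and from 483 to 886 CPM (median 734) in WT sh-Gls2 livers. Its log2 fold change in WT mice was 0.64 ± 0.12 (edgeR adjusted p = 3.6e-05). This value includes the uneven C4b split, with 5 of 10 sh-Gls2 and 2 of 10 control livers over 700 CPM. Below that level H2-K1 ran from 364 to 463 CPM in controls and from 483 to 644 CPM under sh-Gls2. Above it, the values were 566 and 650 CPM in controls and 824 to 886 CPM under sh-Gls2. H2-K1 was among the 6 members still called in WT mice without the livers of high C4b. In OTC mice the levels were 296 to 583 CPM (median 392) under control and 436 to 540 CPM (median 506) under sh-Gls2, and the highest value of both groups belonged to a control, mouse 46. With a log2 fold change of 0.26 ± 0.13 H2-K1 was not called in OTC mice (edgeR adjusted p = 0.093). Without OTC control mouse 46 it was called (0.35, edgeR adjusted p = 0.026), as it was with C4b as a covariate (0.43, adjusted p = 8.1e-06). It was also called in the fit without the livers over 700 CPM of C4b (0.27, adjusted p = 0.016). Of the livers compared, 0 of 8 OTC control and 0 of 10 OTC sh-Gls2 livers lay over that level. Only the fit shared with the other groups changed there.

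B2m, the light chain shared by all class I molecules, was called higher in both strains. In WT livers it went from 1015 to 1220 CPM (median 1138) to 1128 to 1563 CPM (median 1396), a log2 fold change of 0.29 ± 0.06 (edgeR adjusted p = 0.00017). In OTC livers it went from 724 to 993 CPM (median 920) to 994 to 1247 CPM (median 1148), a log2 fold change of 0.34 ± 0.06 (edgeR adjusted p = 2.1e-05). All 10 OTC sh-Gls2 livers lay above all 8 OTC controls, with 994 against 993 CPM at the nearest pair, while the WT groups overlapped.

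The loading machinery followed. Tapbp, which edits the peptide cargo, stood at 58.5 to 73.6 CPM (median 63.1) in WT control livers and at 81.3 to 102 CPM (median 88.9) under sh-Gls2, without overlap (log2 fold change 0.50 ± 0.07, edgeR adjusted p = 4.5e-08). In OTC livers it stood at 57.01 to 85.7 CPM (median 74.04) and at 85.1 to 116 CPM (median 108), with a single OTC sh-Gls2 liver inside the control range (0.52 ± 0.07, edgeR adjusted p = 7.3e-08). Of the members, Tapbp had the smallest difference between the strains' log2 fold changes.

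The transporter subunits Tap1 and Tap2, which work as a pair, were both called in WT mice, and Tap2 alone in OTC mice. Tap1 ran from 10.9 to 23.6 CPM (median 13.6) in WT controls and from 15.01 to 27.6 CPM (median 22.2) under sh-Gls2, with a log2 fold change of 0.53 ± 0.15 (edgeR adjusted p = 0.0048). In OTC livers Tap1 was not called, at 8.32 to 21.1 CPM (median 14.3) against 11.6 to 19.8 CPM (median 16.8) and a log2 fold change of 0.21 ± 0.16 (edgeR adjusted p = 0.30). For Tap2 the larger value was in OTC mice: from 18.6 to 31.4 CPM (median 25.8) to 30.1 to 38.4 CPM (median 33.5), with 0.41 ± 0.09 (edgeR adjusted p = 0.00026). In WT mice Tap2 went from 20.9 to 32.1 CPM (median 26.2) to 26.1 to 35.8 CPM (median 31.3), with 0.26 ± 0.09 (edgeR adjusted p = 0.014). The count of Tap1 as a percent of that of Tap2 was 70.3 ± 20.8 in WT sh-Gls2 livers and 48.1 ± 7.06 in OTC sh-Gls2 livers (mean ± SD, n = 10 each), against 57.6 ± 15.3 in the WT controls (n = 10).

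Psmb8, the immunoproteasome subunit with chymotrypsin-like activity, had the highest log2 fold change of the members in WT mice. It ran from 11.9 to 22.1 CPM (median 15.1) in controls and from 19.8 to 36.9 CPM (median 29.9) under sh-Gls2, with 0.93 ± 0.12 (edgeR adjusted p = 3.2e-08). In OTC mice it ran from 9.57 to 21.5 CPM (median 16.5) and from 21.3 to 31.97 CPM (median 27.1), with 0.67 ± 0.13 (edgeR adjusted p = 4.4e-05). The groups overlapped at a single liver on each side in both strains: a WT control at 22.1 CPM above a WT sh-Gls2 liver at 19.8 CPM, and an OTC control at 21.5 CPM above an OTC sh-Gls2 liver at 21.3 CPM.

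For Psmb9, a further catalytic subunit, the larger value was in OTC mice. In OTC livers it ran from 1.89 to 7.79 CPM (median 5.77) under control and from 5.89 to 10.6 CPM (median 9.33) under sh-Gls2, a log2 fold change of 0.74 ± 0.18 (edgeR adjusted p = 0.00062). In WT livers it ran from 4.93 to 13.3 CPM (median 8.18) and from 9.96 to 13.1 CPM (median 11.9), with 0.48 ± 0.16 (edgeR adjusted p = 0.018). The highest of these values belonged to a WT control, above every WT sh-Gls2 liver.

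Psmb10, the third exchanged subunit, gave like values in both strains, from 13.0 to 18.2 CPM (median 15.01) to 17.5 to 25.2 CPM (median 21.3) in WT mice and from 9.46 to 23.7 CPM (median 18.2) to 20.5 to 26.9 CPM (median 24.6) in OTC mice. Its log2 fold change was 0.50 ± 0.09 in WT mice (edgeR adjusted p = 3.1e-05). In the OTC strain it was 0.46 ± 0.10 (adjusted p = 0.00019). The groups overlapped in both strains.

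Nlrc5, the class I transactivator, was called higher in both strains. In WT mice it ran from 16.4 to 22.1 CPM (median 19.5) in controls and from 16.2 to 38.95 CPM (median 25.03) under sh-Gls2, with 0.46 ± 0.11 (edgeR adjusted p = 0.00062). In OTC mice it ran from 21.6 to 31.6 CPM (median 27.4) and from 27.3 to 44.6 CPM (median 35.7), with 0.41 ± 0.11 (edgeR adjusted p = 0.0023). The lowest WT sh-Gls2 liver lay below every WT control, and the WT groups overlapped.

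**Figure D3:**
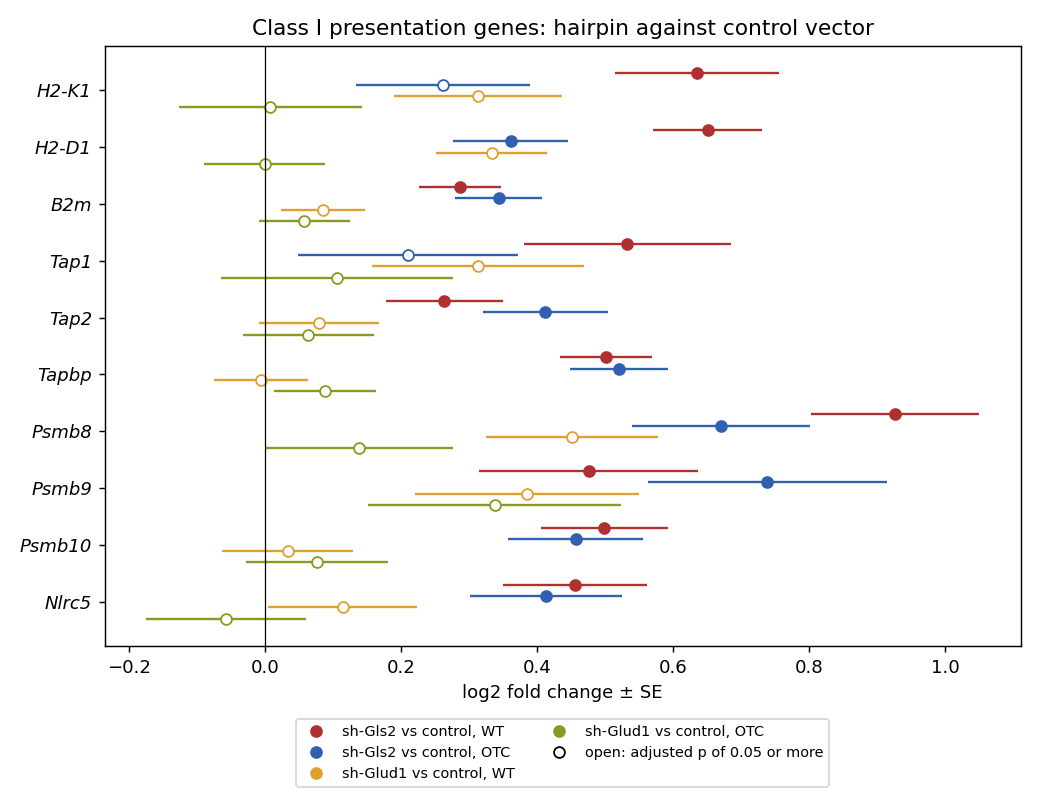
Log2 fold change against the control vector of the same strain (horizontal axis, with SE bars) for the 10 members (rows), with filled points for an adjusted p under 0.05 in edgeR. All 10 red WT points and 8 of 10 blue OTC points for sh-Gls2 are filled, and no point for sh-Glud1 is.

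Whether the strains responded differently to sh-Gls2 was tested by the interaction term, for which 0.338% of all genes were called. Of the members, 0 of 10 passed in edgeR's quasi-likelihood test, with 2 of 10 at an unadjusted p under 0.05 (H2-K1 and H2-D1), as had 1496 of all 13311 genes, and 0 of 10 passed in DESeq2 and in limma on TPM. The OTC effect minus the WT effect was -0.37 ± 0.17 for H2-K1 (95% interval -0.72 to -0.03, edgeR adjusted p = 0.42) and -0.29 ± 0.12 for H2-D1 (95% interval -0.52 to -0.06, edgeR adjusted p = 0.32). Without the livers over 700 CPM of C4b the value for H2-K1 was -0.18 (adjusted p = 0.76) and that for H2-D1 -0.21 (adjusted p = 0.67). With C4b as a covariate they were -0.12 (adjusted p = 0.69) and -0.18 (adjusted p = 0.45). For Tapbp the difference was 0.02 ± 0.10 (95% interval -0.17 to 0.21). The differences between strains in Tap1, Tap2 and Psmb9 given above were not called.

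Without the 11 livers over 700 CPM of C4b, which left 5 WT sh-Gls2 and 8 WT control livers, 6 of 10 members were called higher in WT mice. All 10 log2 fold changes were still above 0, with a median of 0.41. B2m (0.21, edgeR adjusted p = 0.052), Tap1 (0.34, adjusted p = 0.16), Psmb9 (0.53, adjusted p = 0.065) and Nlrc5 (0.17, adjusted p = 0.29) were not called in that smaller set. Over all genes there were 2891 calls without these livers and 4638 with them. In OTC mice 9 of 10 members were called higher in that fit, which left out 0 of 8 control and 0 of 10 sh-Gls2 livers of that strain. There 5512 of 13442 genes were called. With C4b as a covariate and all livers kept, 10 of 10 members were called higher in WT and 10 of 10 in OTC mice. Of all 13311 genes, 4602 were then called in WT and 5733 in OTC mice. C4b was itself measured after the treatment. It ran from 202 to 554 CPM in OTC control and from 187 to 324 CPM in OTC sh-Gls2 livers. The covariate fit therefore cannot separate the level of C4b from an effect of the vector. Leaving out any 1 library kept 10 of 10 calls in WT mice and gave 8 or 9 in OTC mice.

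The rise of the immunoproteasome subunits did not stand alone within the proteasome. All 14 constitutive subunits of the 20S core were called higher under sh-Gls2 in both strains, with a median log2 fold change of 0.66 in WT and 0.46 in OTC mice. The largest in WT livers were Psmb4 (0.85 ± 0.05) and Psma1 (0.82 ± 0.05), the smallest Psma6 (0.29 ± 0.04) and Psma3 (0.31 ± 0.04). In OTC livers Psma1 (0.75 ± 0.06) and Psma5 (0.70 ± 0.05) led, and Psma6 (0.20 ± 0.04) and Psmb1 (0.23 ± 0.05) came last. These are structural or catalytic subunits of every proteasome, with adjusted p in edgeR at or below 8.3e-05 for each of the 8 values named.

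**Figure D4:**
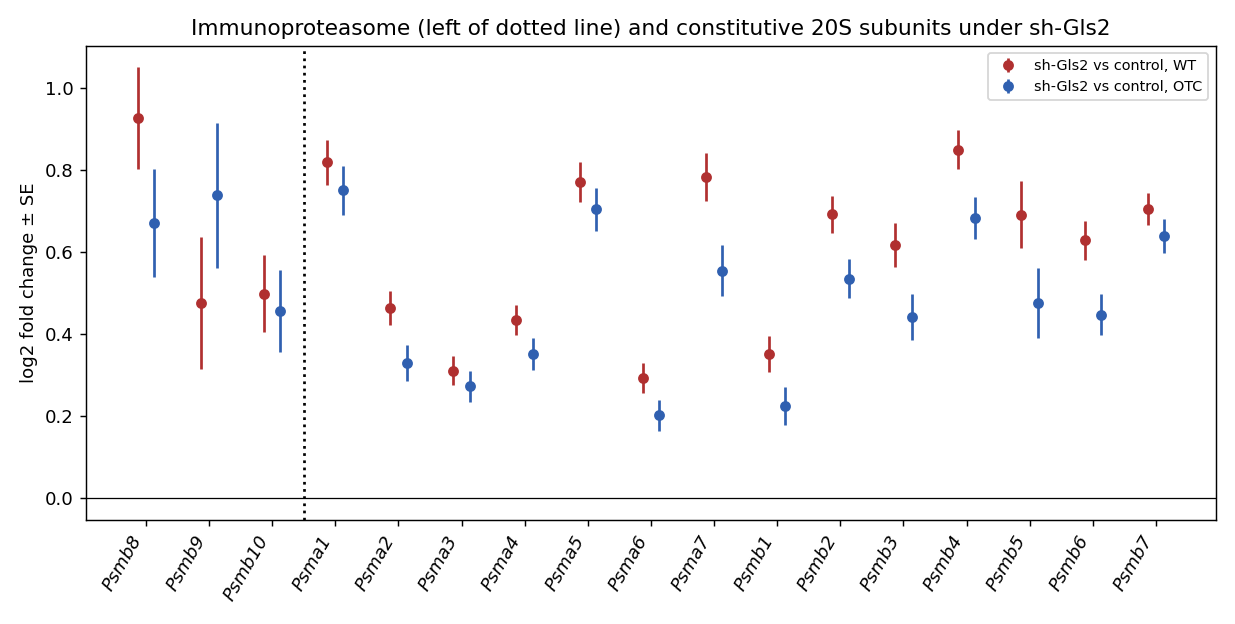
Log2 fold change of sh-Gls2 against control (vertical axis, with SE bars) for Psmb8, Psmb9 and Psmb10 on the left of the dotted line and the 14 constitutive 20S subunits on the right, WT in red and OTC in blue. Every point lies above 0, and the 3 immunoproteasome subunits lie within or near the span of the constitutive ones in each strain.

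Each immunoproteasome subunit was set against the constitutive subunit it replaces, as the log2 ratio of their counts in each liver. For Psmb8 over Psmb5 the count ratio was 34.9 ± 8.98% in livers of WT controls and 42.01 ± 10.4% with sh-Gls2 (mean ± SD, n = 10 each), and 37.8 ± 11.2% (n = 8) and 42.7 ± 6.13% (n = 10) in OTC livers. The log2 ratio differed by 0.26 ± 0.18 (SE) in WT mice (permutation p = 0.15, adjusted p = 0.33) and by 0.22 ± 0.17 in OTC mice (exact permutation p = 0.20, adjusted p = 0.37). For Psmb10 over Psmb7 the ratio went the other way, from 16.0 ± 1.79% to 13.9 ± 1.79% in WT mice, a log2 difference of -0.20 ± 0.08 (permutation p = 0.017, adjusted p = 0.097). In OTC mice the difference was -0.14 ± 0.14 (exact permutation p = 0.28, adjusted p = 0.42). Psmb9 over Psmb6 gave -0.11 ± 0.16 in WT mice (permutation p = 0.50, adjusted p = 0.68) and 0.38 ± 0.25 in OTC mice (exact permutation p = 0.13, adjusted p = 0.33). Larger differences with the same adjusted p of 0.097 lay outside the sh-Gls2 comparisons. Psmb9 over Psmb6 gave -0.71 ± 0.27 in OTC against WT controls (exact permutation p = 0.013). Psmb8 over Psmb5 gave 0.44 ± 0.17 for sh-Glud1 against control in WT mice (exact permutation p = 0.019). None of 15 such two-sided tests, over 3 pairs and 5 comparisons, passed after Benjamini-Hochberg adjustment, and no ratio of an immunoproteasome to a constitutive subunit was called as changed.

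Other factors of peptide supply and loading moved less evenly. Of 10 genes for the proteasome activator, peptide trimming and the loading complex, 4 were called higher and 1 lower in WT mice (median 0.05), and 6 higher and none lower in OTC mice (median 0.27). Pomp, the chaperone that assembles proteasomes, led in both strains with 0.59 ± 0.06 and 0.69 ± 0.07 (edgeR adjusted p = 5.0e-11 and 3.0e-12). Psme1, a subunit of the PA28 activator, followed with 0.44 ± 0.06 and 0.33 ± 0.07 (adjusted p = 1.1e-07 and 5.3e-05). Tapbpl, a tapasin relative, was at 0.19 ± 0.07 in WT mice, and the trimming enzyme Erap1 was called lower there, at -0.16 ± 0.06 (adjusted p = 0.025). In OTC mice Psme2, the partner of Psme1, and the chaperone Canx were the lowest of the called genes, at 0.29 ± 0.07 and 0.25 ± 0.07.

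Of the nonclassical class I genes, most of which lie in the same region, most were called higher in both strains. In WT mice 11 of 17 tested were called higher and 1 lower (median 0.39), and in OTC mice 9 higher and 1 lower (median 0.54). H2-Q6 (0.74 ± 0.12) and H2-T22 (0.63 ± 0.16) led the better-measured genes in WT mice, and H2-Q1 (1.31 ± 0.27) and H2-T24 (0.87 ± 0.16) did in OTC mice. Fcgrt, the neonatal Fc receptor whose heavy chain also pairs with B2m, was the gene called lower, at -0.33 ± 0.07 in WT and -0.39 ± 0.07 in OTC mice. Among 35 other genes of the MHC region that have no part in presentation, 5 were called higher and 6 lower in WT mice (median -0.06), and 4 higher and 12 lower in OTC mice (median -0.09). Flot1 (0.60 ± 0.10) and Stk19 (-0.39 ± 0.10) marked the ends in WT mice, and the complement gene C2 (0.70 ± 0.10) and the ribosomal gene Rps18 (-0.62 ± 0.11) in OTC mice.

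Of 9 tested class II genes, H2-Ea-ps among them, 7 were called higher and none lower in WT mice (median 0.92), and 2 higher and none lower in OTC mice (median 0.33). The complement genes C4a and C4b were left out of these counts after their values were seen. H2-Eb1 (1.303 ± 0.27) and H2-Aa (1.26 ± 0.23), chains of the class II molecules, led in WT mice. H2-Ea-ps was called higher in both strains, at 0.82 ± 0.26 and 0.76 ± 0.27. Within each of the WT groups compared, its level was lower in the livers of high C4b, as given above. C4a, a complement gene close in sequence to C4b, was called lower in WT mice (-1.64 ± 0.50, edgeR adjusted p = 0.0085).

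Interferon-responsive genes were called higher in the same livers. Of 20 genes of the type I response, 20 were called higher in WT mice (median 1.09) and 17 in OTC mice (median 0.73). Oas1a, a sensor of double-stranded RNA, had 2.11 ± 0.30 and Ifi44 1.88 ± 0.28 in WT mice, and the antiviral genes Ifit2 (1.47 ± 0.18) and Oasl2 (1.45 ± 0.20) led in OTC mice. The lowest called genes were Bst2 (0.63 ± 0.13) and Rsad2 (0.65 ± 0.20) in WT mice and Bst2 (0.50 ± 0.13) and Ddx58 (0.51 ± 0.11) in OTC mice. Of 15 tested genes of the interferon gamma response, 12 were called higher in WT mice (median 0.73) and 7 in OTC mice (median 0.66), none lower. The GTPase Gbp3 (1.79 ± 0.25) and the chemokine Cxcl10 (1.60 ± 0.25) led in WT mice, and Cxcl10 (1.61 ± 0.26) and Cxcl9 (1.22 ± 0.37) in OTC mice.

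The interferons themselves were near or at 0. None of 9 ligand genes passed the filter on low counts. Ifng had 38 counts over all 55 livers, with at most 5 in any liver, Ifnb1 had 2 counts and Ifna1, Ifna2, Ifna4, Ifnl2 and Ifnl3 had 0. Of 9 receptor and kinase genes, 3 were called higher and 1 lower in WT mice, and 5 higher and 1 lower in OTC mice. Ifngr1, a chain of the interferon gamma receptor, had 0.36 ± 0.08 and 0.38 ± 0.09, Il10rb led in WT mice (0.39 ± 0.10) and Ifngr2 in OTC mice (0.39 ± 0.10), while Ifnar1, a chain of the type I receptor, was called lower at -0.26 ± 0.05 and -0.12 ± 0.05.

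Transcription factors that act on class I promoters split in direction. Of 22 tested, 6 were called higher and 3 lower in WT mice, and 6 higher and 5 lower in OTC mice, with a median log2 fold change of 0.07 in each. Irf7, the factor that amplifies the type I response, had 2.06 ± 0.20 in WT and 1.01 ± 0.20 in OTC mice (edgeR adjusted p = 2.4e-12 and 6.1e-05). Nfkb2 was the second of the better-measured genes in OTC mice (0.61 ± 0.10). Nfya, a subunit of the Y box factor NF-Y, was called lower in both, at -0.29 ± 0.10 and -0.52 ± 0.11, as were Stat3 in WT mice (-0.34 ± 0.08) and Creb1 in OTC mice (-0.35 ± 0.06). Of 4 tested genes that restrain interferon signalling, 1 was called in WT mice, Usp18 (1.77 ± 0.22), and none in OTC mice.

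General leukocyte markers and those of macrophages and Kupffer cells rose with the members under sh-Gls2, while no lymphocyte or neutrophil marker was called. All 5 general leukocyte markers were called higher in both strains, and 10 of 12 macrophage and Kupffer cell markers in WT and 11 of 12 in OTC mice. The summed level of the macrophage and Kupffer list ran from 141 to 235 CPM in livers of WT controls and 201 to 321 CPM with sh-Gls2 in that strain, and from 125 to 265 CPM in OTC control and 224 to 382 CPM in OTC sh-Gls2 livers. Cd68, a lysosomal protein of macrophages, had 1.01 ± 0.12 and 1.15 ± 0.13. Of 7 tested T and NK cell markers none was called in either strain in edgeR (2 in WT and 1 in OTC mice at an unadjusted p under 0.05). Their median log2 fold change was 0.53 in WT and 0.54 in OTC mice. The summed level of the T and NK cell list was 3.42 to 11.5 CPM (median 4.86) in livers of WT controls and 3.91 to 10.6 CPM (median 7.77) with sh-Gls2, and its median went from 4.48 to 7.23 CPM in OTC mice. The 4 B cell and 3 neutrophil markers tested gave no call either. Of 4 tested dendritic cell markers, 3 in WT and 1 in OTC mice had an unadjusted p under 0.05 in edgeR. The mean summed level of their list went from 5.65 to 6.95 CPM in WT and from 6.52 to 8.26 CPM in OTC mice. Of 5 bile duct markers, 2 in WT and 1 in OTC mice had an unadjusted p under 0.05 in edgeR. The 6 markers of sinusoidal endothelium gave none in WT mice (2 at an unadjusted p under 0.05) and 4 higher in OTC mice, and the 7 stellate cell markers 3 and 4 higher. Of 8 hepatocyte genes 1 was called lower in WT and 4 in OTC mice, and their summed level was at least 77259 CPM in every liver. No marker of these lists was at 0 over a whole group. The part of a changed cell mixture in the members' rise was not tested.

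Under sh-Glud1 no member was called against the control vector. In WT mice 0 of 10 were called in edgeR, DESeq2 or limma on TPM, where 0.0225% of all genes were called, and 4 of 10 had an unadjusted p under 0.05 in edgeR, as had 697 of all 13311 genes. In OTC mice 0 of 10 were called with each of these tools and 0 of 10 had an unadjusted p under 0.05 (639 of all 13311 genes), where 0.015% of all genes were called. The values in WT mice were above 0 for 9 of 10 members, with a median log2 fold change of 0.21. H2-D1 was at 247 to 382 CPM (median 295) against 196 to 292 CPM in the controls, with 0.33 ± 0.08 (edgeR adjusted p = 0.30), and Psmb8 at 16.0 to 26.9 CPM (median 22.01) against 11.9 to 22.1 CPM, with 0.45 ± 0.13 (edgeR adjusted p = 0.43). Psmb9 (0.39 ± 0.16), H2-K1 (0.31 ± 0.12) and Tap1 (0.31 ± 0.16) had values of like size, and Tapbp, one of the members that separated the WT groups under sh-Gls2, was at -0.01 ± 0.07. In OTC mice the median was 0.07, with Psmb9 highest at 0.34 ± 0.19. The interaction between strain and sh-Glud1 called 0 of 10 members, where 0% of all genes were called (417 at an unadjusted p under 0.05). It had 1 member, H2-D1, at an unadjusted p under 0.05 (-0.33 ± 0.12, edgeR adjusted p = 0.999).

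The hairpins were also set against each other, which compares mice that both received an active hairpin. In WT mice 7 of 10 members were higher under sh-Gls2 than under sh-Glud1, with a median of 0.32, where 29.6% of all genes were called. Tapbp led with 0.51 ± 0.07 (edgeR adjusted p = 8.3e-08), and its ranges did not overlap: 81.3 to 102 CPM under sh-Gls2 and 54.5 to 72.7 CPM under sh-Glud1. Psmb8 (0.48 ± 0.13) and Psmb10 (0.47 ± 0.10) followed, and Tap1, Tap2 and Psmb9 were not called. In OTC mice 7 of 10 were called higher as well, with a median of 0.37, where 40.5% of all genes were called. Psmb8 (0.53 ± 0.13), Nlrc5 (0.47 ± 0.11) and Tapbp (0.43 ± 0.07) led there, and H2-K1, Tap1 and Psmb9 were not called. These comparisons share the sh-Gls2 livers with those against control. Without the 11 livers over 700 CPM of C4b only 1 of 10 members, Tapbp, was called in WT mice, and 8 of 10 in OTC mice. Of all 13442 genes tested there, 2148 were called in WT and 4840 in OTC mice. The WT values that lost their call were then 0.21 for H2-K1 (edgeR adjusted p = 0.22), 0.25 for H2-D1 (0.084), 0.10 for B2m (0.48), 0.30 for Psmb8 (0.22), 0.35 for Psmb10 (0.069) and 0.07 for Nlrc5 (0.74). With C4b as a covariate and all livers kept, 7 of 10 members were called in WT and 10 of 10 in OTC mice. Of all 13311 genes, 3950 were called with the covariate in WT and 5335 in OTC mice. H2-K1 in WT mice lost its call when any 1 of WT sh-Gls2 mice 8, 30, 34, 78 and 79 or WT sh-Glud1 mice 32, 37, 40, 56, 57 and 70 was left out (edgeR adjusted p 0.057 to 0.10), and Nlrc5 without WT sh-Gls2 mouse 78 or 79 (0.052 and 0.054). H2-K1 in OTC mice gained a call without OTC sh-Glud1 mouse 44 (adjusted p = 0.038), and Psmb9 without OTC sh-Gls2 mouse 4 or 50 or OTC sh-Glud1 mouse 23, 42 or 71 (0.023 to 0.050).

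OTC and WT livers under the same vector were compared next, with no liver shared between the 3 comparisons. Under the control vector 4 of 10 members were called, 2 higher and 2 lower in OTC mice, where 36.3% of all genes were called. B2m ran from 724 to 993 CPM (median 920) in OTC and from 1015 to 1220 CPM (median 1138) in WT controls, without overlap, a log2 fold change of -0.35 ± 0.06 (edgeR adjusted p = 2.3e-05). Psmb9 ran from 1.89 to 7.79 CPM (median 5.77) against 4.93 to 13.3 CPM (median 8.18), with -0.67 ± 0.18 (edgeR adjusted p = 0.0024). Nlrc5 went the opposite way, at 21.6 to 31.6 CPM (median 27.4) against 16.4 to 22.1 CPM (median 19.5), with 0.47 ± 0.11 (edgeR adjusted p = 0.00078). Tapbp was called higher with 0.20 ± 0.07 (edgeR adjusted p = 0.025), a call that was lost without any of 5 single livers (WT control mice 10, 20 and 77, OTC control mouse 46 and the unnumbered OTC control; adjusted p 0.050 to 0.093) and without the livers over 700 CPM of C4b (0.18, adjusted p = 0.064). H2-K1 (-0.12 ± 0.13) and H2-D1 (-0.05 ± 0.08) were not called. The median of the members was -0.03, against 0.02 over all genes.

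The same 4 genes were called in the same direction under each vector. B2m was lower in OTC mice by -0.30 ± 0.06 under sh-Gls2 and by -0.38 ± 0.07 under sh-Glud1, where the groups again did not overlap (794 to 1048 CPM in OTC, 1093 to 1313 CPM in WT). Psmb9 was at -0.40 ± 0.16 and -0.72 ± 0.18, Nlrc5 at 0.43 ± 0.10 and 0.30 ± 0.11, and Tapbp at 0.22 ± 0.07 and 0.29 ± 0.07, each called in both. Thus the activator and tapasin were higher, and the light chain and Psmb9 lower, in OTC livers with each of the 3 vectors. The call of Psmb9 under sh-Gls2 (edgeR adjusted p = 0.049) was kept without any 1 of WT sh-Gls2 mouse 18 and OTC sh-Gls2 mice 49 and 60 and lost without any 1 of the other 17 livers (up to 0.10). That of Nlrc5 under sh-Glud1 (adjusted p = 0.036) was lost without any 1 of WT sh-Glud1 mice 15, 32, 40, 56, 69 and 70 and OTC sh-Glud1 mice 23, 33, 58 and 71 (up to 0.092). On log2(TPM + 1) with limma, B2m (-0.15, adjusted p = 0.069) and Psmb9 (-0.27, adjusted p = 0.19) were not called under sh-Gls2, and all 4 genes were called under the other vectors. The median over all genes under sh-Gls2 was 0.12 on that scale and 0.01 in edgeR.

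**Figure D5:**
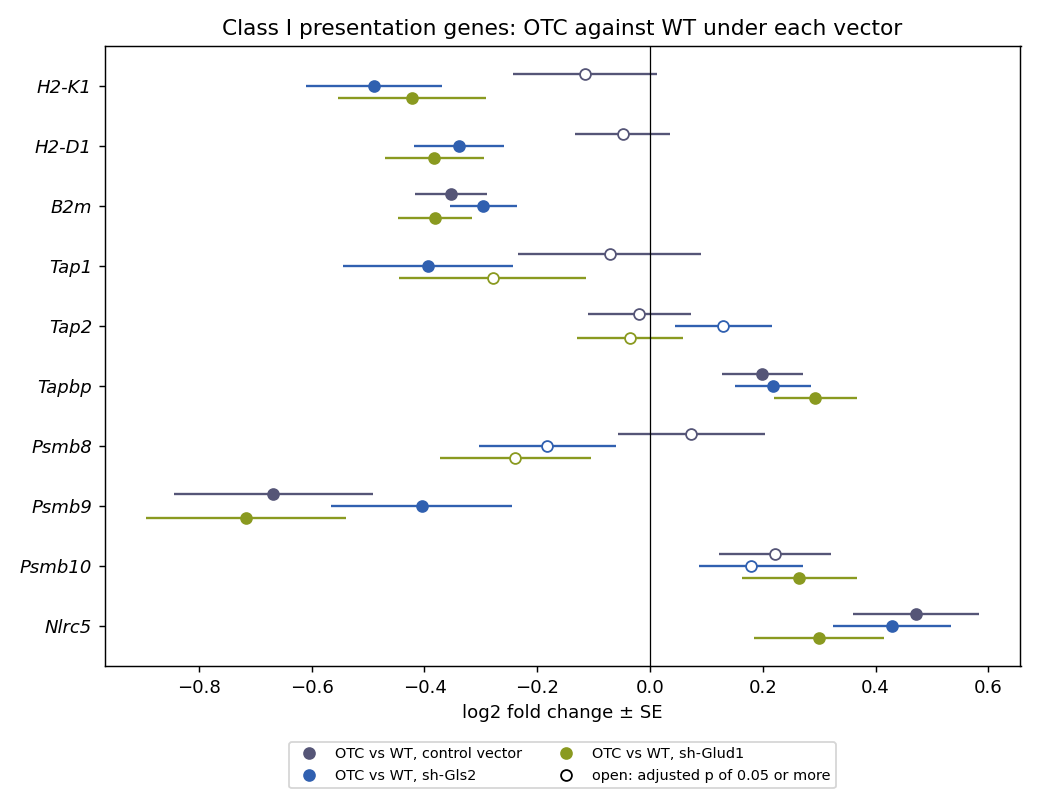
Log2 fold change of OTC against WT livers (horizontal axis, with SE bars) for the 10 members (rows) under the control vector, sh-Gls2 and sh-Glud1, with filled points for an adjusted p under 0.05 in edgeR. B2m and Psmb9 lie left of 0 and Tapbp and Nlrc5 right of 0 with filled points under all 3 vectors, while H2-K1 and H2-D1 are filled only under the hairpins.

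With sh-Gls2, 2 members were called higher and 5 lower in OTC mice, where 29.5% of all genes were called, and with sh-Glud1 3 higher and 4 lower, where 35% of all genes were called. H2-K1 was lower by -0.49 ± 0.12 (edgeR adjusted p = 0.0017) under sh-Gls2 and by -0.42 ± 0.13 (adjusted p = 0.0099) under sh-Glud1. H2-D1 was at -0.34 ± 0.08 (adjusted p = 0.0011) and -0.38 ± 0.09 (adjusted p = 0.00055). On log2(TPM + 1) with limma, H2-K1 was called under sh-Gls2 (-0.33, adjusted p = 0.038) and not under sh-Glud1 (-0.26, adjusted p = 0.13), and H2-D1 under neither (adjusted p = 0.061 and 0.051). Without the livers over 700 CPM of C4b, H2-K1 under sh-Gls2 was at -0.18 (adjusted p = 0.22) and H2-D1 at -0.22 (adjusted p = 0.080), and 3 of 10 members were called, which were B2m, Tapbp and Nlrc5. In that fit 3012 of 13442 genes were called. Psmb9 was then at -0.34 (adjusted p = 0.22) and Tap1 at -0.05 (adjusted p = 0.87). With C4b as a covariate H2-K1 was at -0.07, H2-D1 at -0.16 and Psmb9 at -0.29, none called, and Tap1, called lower at -0.39 ± 0.15 (adjusted p = 0.043), was at 0.07. Under sh-Glud1 the heavy chains kept their calls in both alternatives. H2-K1 was at -0.30 without these livers (adjusted p = 0.030) and at -0.25 with the covariate (adjusted p = 0.0094), and H2-D1 at -0.37 (adjusted p = 0.0026) and -0.31 (adjusted p = 0.0010). Tap1 under sh-Gls2 also lost its call without any 1 of WT sh-Gls2 mice 8, 30, 34, 78 and 79 and OTC sh-Gls2 mice 24, 31, 50, 60 and 73 (adjusted p up to 0.087). Psmb10 was called higher under sh-Glud1 alone (0.26 ± 0.10, adjusted p = 0.037), a call lost without any 1 of WT sh-Glud1 mice 15, 17, 32, 40, 56 and 69 and OTC sh-Glud1 mice 23, 42, 44 and 71 (up to 0.11) and without the livers over 700 CPM of C4b (0.15, adjusted p = 0.38). Under the control vector it gained a call without OTC control mouse 3 (adjusted p = 0.0056). The TPM values were fitted without TMM scaling, and the scales were offset between the strains. From edgeR to log2(TPM + 1), the median log2 fold change over all genes moved from 0.02 to 0.10 under the control vector. It moved from 0.01 to 0.12 under sh-Gls2 and from 0.02 to 0.15 under sh-Glud1. The members' strain values on TPM, called or not, stand on that offset scale. The share of calls that were higher in OTC mice moved from 54.9% to 77.5%, from 49.3% to 85.01% and from 56.8% to 85.5%. Among the members under sh-Gls2 limma on log2(TPM + 1) called 4 higher and 1 lower, the latter H2-K1. Of 11310 genes it called 4247 higher and 749 lower.

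The neighbouring gene lists were compared between the strains as well. Under the control vector 19 of 20 genes of the type I list were called higher in OTC than in WT livers (median 0.92), led by Ifit1 (1.61 ± 0.23) and Mx1 (1.44 ± 0.27), with Bst2 (0.37 ± 0.13) and Ifih1 (0.40 ± 0.11) lowest. Their summed level was 269 to 576 CPM in OTC and 222 to 349 CPM in WT controls. Of 15 interferon gamma genes 3 were called higher (median 0.30), with Gbp3 at 1.17 ± 0.26, and Irf7 was at 1.75 ± 0.20. Whether the members and these lists differ from each other was not tested. Of the 14 constitutive proteasome subunits 2 were called lower, Psma5 (-0.21 ± 0.05) and Psma1 (-0.20 ± 0.06). Of the loading genes 1 was called higher and 4 lower, with the endoplasmic reticulum chaperones Calr (-0.80 ± 0.12) and Pdia3 (-0.61 ± 0.11) lowest. Of the macrophage and Kupffer markers 1 was called higher (C1qa, 0.32 ± 0.13), and of the general leukocyte markers 1 lower (Lcp1, -0.39 ± 0.08). The part of cell mixture in these strain differences was not tested.

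Between single livers the members tended to vary together. Each member's log2 CPM was correlated with the mean of the other 9 over the 55 livers, which share group effects and normalization, as a description. Psmb8 followed the others most closely (Pearson r = 0.94) and Nlrc5 least (r = 0.39). With group means subtracted, Psmb8 was again highest (r = 0.85), followed by Tapbp and Tap1 (0.76 and 0.75), and Nlrc5 again lowest (0.31). H2-K1 and H2-D1, which are close in sequence, had r = 0.82 between them after subtraction, while H2-K1 and Tap2 had -0.14. Within groups the coefficient of variation of Psmb9 was 35.5% in OTC controls and 7.99% in WT sh-Gls2 livers, and that of H2-K1 was 6.91% in OTC sh-Gls2 and 21.8% in WT sh-Gls2 livers.

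The genes most like the members' mean standardized level over the 55 livers were H2-T9 (r = 0.89), a nonclassical class I gene, Uba7 (0.88) and Ube2l6 (0.85), which conjugate the ubiquitin-like ISG15, Mlkl (0.86), the effector of necroptosis, Zc3hav1 (0.86), an antiviral RNA-binding protein, AW112010 (0.86), the chemokine Cxcl16 (0.83) and Lgals3bp (0.83). With group means subtracted they included the GTPases Gbp6 (0.82), Gm4841 (0.80), Igtp (0.78) and Iigp1 (0.77), then Bst2 (0.77), Zbp1 (0.76) and Cxcl9 (0.76). Each r is over 55 livers, describes these libraries and has no test attached. Both sets were ranked over all 13311 tested genes other than the members.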

How the data were processed

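RNA of 55 livers was sequenced with a stranded kit for polyadenylated RNA and amplified by PCR, per the labels' protocols. The authors deposited a table of gene counts and a table of TPM values. CASAVA 1.8.2, FastQC and the build GRCm38 stand in the submitters' processing notes. The aligner, the counter, the annotation and whether counting used strand are not given in the sources used here. Reads carry no molecular identifiers, so counts are not independent molecules.

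Counts were tested with edgeR 4.0.16 (R 4.3.3): filterByExpr with a count minimum of 10, TMM scaling, 1 term per group over all 55 livers, and the quasi-likelihood test with Benjamini-Hochberg adjustment over 13311 genes at 0.05. The SE is the absolute log2 fold change divided by the square root of F. Each mouse gave 1 library, so p-values measure the spread between mice. Ratios of counts were tested by two-sided permutation of livers (SciPy 1.17.1), exact where a group had fewer than 10 and otherwise with 100000 resamples. The alternatives were DESeq2 1.42.0, DESeq2 size factors, other filters, the compared groups alone, limma 3.58.1 on log2(TPM + 1) and log2(TPM + 0.1), and libraries left out. The scripts were tested on simulated data. Library totals were 14489866 to 22781052 counts, and 1 OTC control library, whose number differs between its label and the table, is called unnumbered.

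The members and gene lists were chosen with earlier results of these data known. Named from each list are the 2 highest and 2 lowest of its called genes whose average level reached 1 log2 CPM, as far as they add to the text. Cd68 stands for the macrophage markers, and the 8 genes most like the members are named by rank. A gene that these rules name is not reported here. Sequences and promoter windows came from RefSeq (GRCm38.p6).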

Additional observations from a re-analysis of the deposited data

How the results depend on the processing

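Under DESeq2, DESeq2 size factors, other filters, the compared groups alone, TPM and without 3 control libraries (mouse 13 of the WT, mice 3 and 67 of the OTC group), none of the 68 log2 fold changes of members compared (those called or at least 0.25 in size) changed direction, and the number of members called stayed within 1.5 times in each comparison. Smaller values did turn. For OTC against WT under the control vector 4 members were above 0 and 7 on log2(TPM + 1). Their median went from -0.03 to 0.07, while that over all genes went from 0.02 to 0.10. For sh-Glud1 in OTC mice 8 were above 0 and 5 without the 3 control libraries. Without the livers over 700 CPM of C4b, an alternative chosen after seeing the data, 6 members were called for sh-Gls2 against control in WT mice, 1 for sh-Gls2 against sh-Glud1 in WT mice and 3 for OTC against WT under sh-Gls2. Over all 13442 genes tested, the calls in these comparisons were 2891, 2148 and 3012. With C4b as a covariate, likewise added later, 3 were called for OTC against WT under sh-Gls2, where 2663 of 13311 genes were called. Tap1 turned there from -0.39 to 0.0674. The cause was not tested.

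With single livers left out, the members called ran from 3 to 5 for OTC against WT under the control vector, 5 to 7 under sh-Gls2 and 5 to 7 under sh-Glud1. For sh-Gls2 against control they ran from 10 to 10 in WT and 8 to 9 in OTC mice, and for sh-Glud1 against control from 0 to 0 in both. For sh-Gls2 against sh-Glud1 they ran from 5 to 7 in WT and 7 to 8 in OTC mice, and for both strain differences from 0 to 0. Of 2380 member values from these omissions, 65 lost a call, 8 gained one and 54 changed sign, none of the latter for a called value and all for values of at most 0.0762 in size.

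Over all genes, the calls went from 3946 to 2148 for sh-Gls2 against sh-Glud1 in WT mice without the livers over 700 CPM of C4b. The 45 calls of the strain difference in the sh-Gls2 effect became 24 without a filter, 91 with DESeq2, 19 with the compared groups alone, 21 and 23 on TPM, 12 without the 3 control livers and 8 without the livers of high C4b. The 2 calls of sh-Glud1 in OTC mice became 1 with the compared groups alone. No paired analysis was possible because the mouse numbers are unique to each mouse.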
